A study of Mus musculus with 32 samples.

Results

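The clade A3 and B serpins Serpina3g, Serpina3n, Serpinb9, Serpinb9b, Serpinb6a and Serpinb1a, with the family members Serpinf1 and Serpine2, were followed in mouse embryonic fibroblasts that differ in where the enzyme ATP-citrate lyase (ACLY) can act. They were chosen by gene symbol, with earlier results of these data known. All 8 were present in both deposited tables, of 12913 genes and 22 serpin genes in either table. Serpina3g and Serpinb9b were picked for how their values differed between constructs, so they are described with no test. The other 6 members were tested.

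Most serpins inhibit proteases by a suicide mechanism: the protease cleaves an exposed loop, the serpin changes shape, and the protease stays trapped in a covalent complex. Many clade A serpins are secreted, while clade B serpins mostly act inside the cell. Serpinf1 (pigment epithelium-derived factor) has no inhibitory activity, so the label of protease inhibitors holds for the others and not for it, and neither Serpinf1 nor Serpine2 belongs to clade A3 or B. ACLY makes acetyl-CoA from citrate.

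All cells were Acly KO fibroblasts carrying an mCherry construct. Nuc cells expressed mCherry-tagged human ACLY with extra nuclear import signals (NLS), Cyto cells the same protein with a nuclear export signal (NES), and WT cells the protein with neither. KO cells received mCherry alone. Cells kept in DMEM with 10% CS were moved to 1 mM or 10 mM glucose for 24 h. There were 4 libraries per construct and medium, except 3 for Cyto in 10 mM glucose, where the library that the submitters called an anomaly was not analysed here. Whether the libraries come from independent cultures, and whether each line was made once, is not stated, so p-values measure the spread between these samples, which may be technical. The 1 mM libraries are batch 1 and the 10 mM libraries batch 2, so levels were compared only within a medium. Values are deposited normalized log2 values, and the read depth behind them is unknown.

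Acly was used to check that the ACLY lines differ from KO. Its level cannot show the import or export signals, so the Nuc, Cyto and WT labels were not checked against one another. Whether reads of the human ACLY construct enter the mouse Acly value is not stated. In 1 mM glucose it averaged 8.97 ± 0.08 in Nuc, 10.50 ± 0.07 in Cyto, 10.57 ± 0.10 in WT and 5.35 ± 0.10 in KO cells (SD, n = 4 each). It averaged 9.12 ± 0.12 in Nuc, 9.74 ± 0.13 in Cyto, 10.21 ± 0.06 in WT and 5.87 ± 0.21 in KO cells in 10 mM glucose (SD, n = 3 for Cyto and 4 for the others). Every ACLY line was above KO and Nuc was the lowest of the ACLY lines in both media; the part of this level difference in the serpin values was not tested. Of 12 fibroblast markers, 11 were listed, and their summed linear value differed by construct. In 1 mM glucose the sum was 34700 to 40100 in Nuc, 20000 to 23300 in Cyto, 43700 to 47300 in WT and 27500 to 32200 in KO libraries. With 10 mM glucose the sum was 35100 to 37900 in Nuc, 25600 to 28000 in Cyto, 33100 to 33500 in WT and 18500 to 20700 in KO libraries. Of 11 leukocyte markers only Cd68, Csf1r and Lyz2 were listed, and the pan-leukocyte marker Ptprc was not. Of 5 adipocyte markers Fabp4 and Lpl were listed. Their sum in 1 mM glucose was 456 to 508 in Nuc and 329 to 393 in Cyto libraries. It was 357 to 392 in WT and 219 to 224 in KO libraries. The sum in 10 mM glucose was 410 to 463 in Nuc and 208 to 246 in Cyto libraries. There it was 278 to 305 in WT and 255 to 271 in KO libraries. Krt19, and the sum of the muscle markers Des and Tnnt2, also differed by construct.

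Serpina3g and Serpina3n lie on chromosome 12, Serpinb9, Serpinb9b, Serpinb6a and Serpinb1a on chromosome 13, Serpinf1 on chromosome 11 and Serpine2 on chromosome 1. The promoters of the A3 pair and of the neighbours Serpinb9 and Serpinb9b are printed to show how alike these paralogs are, from 250 bases before to 50 after 1 annotated start per gene, 5′ to 3′, from RefSeq on build GRCm38.p6. They lie at chr12:104235897-104236196 (Serpina3g), chr12:104406458-104406757 (Serpina3n), chr13:33004291-33004590 (Serpinb9) and chr13:33027164-33027463 (Serpinb9b), all on the plus strand. The Serpinb9 window lies inside the RefSeq span of that gene (32997061 to 33017955), and the Serpina3n span begins at 104406646, within its window, so neither window is taken at the gene's outermost start. Capitals mark the motif matches described next.
Serpina3g: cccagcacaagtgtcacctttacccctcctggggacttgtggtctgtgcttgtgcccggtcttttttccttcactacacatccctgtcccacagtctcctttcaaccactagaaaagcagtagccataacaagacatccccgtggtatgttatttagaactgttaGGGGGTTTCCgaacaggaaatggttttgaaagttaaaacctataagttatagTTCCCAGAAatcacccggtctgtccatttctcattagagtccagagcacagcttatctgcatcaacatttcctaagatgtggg
Serpina3n: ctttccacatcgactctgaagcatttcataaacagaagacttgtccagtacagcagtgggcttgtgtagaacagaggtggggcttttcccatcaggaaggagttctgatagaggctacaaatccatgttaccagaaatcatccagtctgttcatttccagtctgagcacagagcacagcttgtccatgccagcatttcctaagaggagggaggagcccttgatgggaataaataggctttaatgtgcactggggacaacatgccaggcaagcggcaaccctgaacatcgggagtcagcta
Serpinb9: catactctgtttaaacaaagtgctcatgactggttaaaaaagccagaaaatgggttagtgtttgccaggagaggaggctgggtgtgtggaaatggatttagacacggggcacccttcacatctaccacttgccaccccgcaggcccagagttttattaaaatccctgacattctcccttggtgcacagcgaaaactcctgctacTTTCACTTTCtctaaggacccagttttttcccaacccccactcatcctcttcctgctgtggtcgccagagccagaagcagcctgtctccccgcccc
Serpinb9b: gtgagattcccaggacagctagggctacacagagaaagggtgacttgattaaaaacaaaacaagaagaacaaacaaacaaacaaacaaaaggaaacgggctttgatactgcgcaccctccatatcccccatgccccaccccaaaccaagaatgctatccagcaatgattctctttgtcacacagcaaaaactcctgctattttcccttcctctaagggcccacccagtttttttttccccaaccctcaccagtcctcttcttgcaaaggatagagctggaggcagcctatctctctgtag

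Aligned locally, Serpina3g and Serpina3n matched at 111 of 154 columns (72.1%), and Serpinb9 and Serpinb9b at 152 of 216 columns (70.4%). The aligned stretch began at -96 from the start in Serpina3g but at -184 in Serpina3n, so their positions differ. It began at -163 in Serpinb9 and -160 in Serpinb9b. The 5 motifs, searched on both strands, were STAT (TTCNNNGAA, in 8.3% of 32851 promoters of this length), AP-1 (TGANTCA, 7.81%), C/EBP (TTGCNNAA, 10.8%), IRF (GAAA, any 2 bases, then GAAA; 3.44%) and NF-kB (8.46%). The Serpina3g promoter held a STAT match, TTCCCAGAA, first base at -33 from the start, and an NF-kB match, GGGGGTTTCC, at -85. The Serpinb9 promoter held an IRF match, TTTCACTTTC, at -46. Serpinb6a had 2 promoter entries: 1 held a STAT match, TTCCGGGAA, at -77 and 21, the first overlapping an IRF match, TTTCGATTTC, at -84, and the other held no match. No match was found in the windows of Serpina3n, Serpinb9b, Serpinf1 and Serpine2, and 7 of 8 members had a promoter entry. A match is a run of letters and not a bound site.

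The paralogs share transcript sequence, so reads may be split between copies and their values are uncertain to that extent. Of the 31-base words of Serpina3g in GENCODE M21, 28.4% occurred in another gene, mainly Serpina3f (16.2%), Serpina3h (15.2%) and Serpina3i (12.4%). The share was 21.6% for Serpina3n, 4.94% for Serpinb9, 11% for Serpinb9b, 10.2% for Serpinb1a and 29.0% for Serpinb6a, where the gene with most shared words was Nqo2. It was 1.39% for Serpine2 and 0% for Serpinf1.

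Serpina3g, an intracellular clade A serpin that inhibits cathepsins, had the same order of means in both media: KO highest, then Cyto, WT and Nuc. In 1 mM glucose it had 4.76, 4.88, 4.78 and 4.72 in Nuc, 6.84, 6.75, 6.76 and 6.89 in Cyto, 5.32, 5.68, 5.36 and 5.70 in WT, and 7.24, 7.31, 7.34 and 7.43 in KO libraries (log2). No groups overlapped. In 10 mM glucose it had 5.09, 4.76, 4.75 and 5.31 in Nuc, 6.54, 6.21 and 6.55 in Cyto, 5.39, 5.28, 5.38 and 5.61 in WT, and 7.68, 7.88, 7.98 and 8.0 in KO libraries. Nuc and WT overlapped, and every other pair of groups was separate. Serpina3g was 5.84-fold lower in Nuc, 1.43-fold lower in Cyto and 3.51-fold lower in WT than in KO cells in 1 mM glucose. The values in 10 mM glucose were 7.51-fold lower in Nuc, 2.73-fold lower in Cyto and 5.54-fold lower in WT. Nuc was 4.08-fold below Cyto in 1 mM and 2.75-fold below Cyto in 10 mM glucose. These values chose the gene and carry no test. In bulk RNA, fewer cells of a type and less RNA per cell cannot be told apart.

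**Figure D1:**
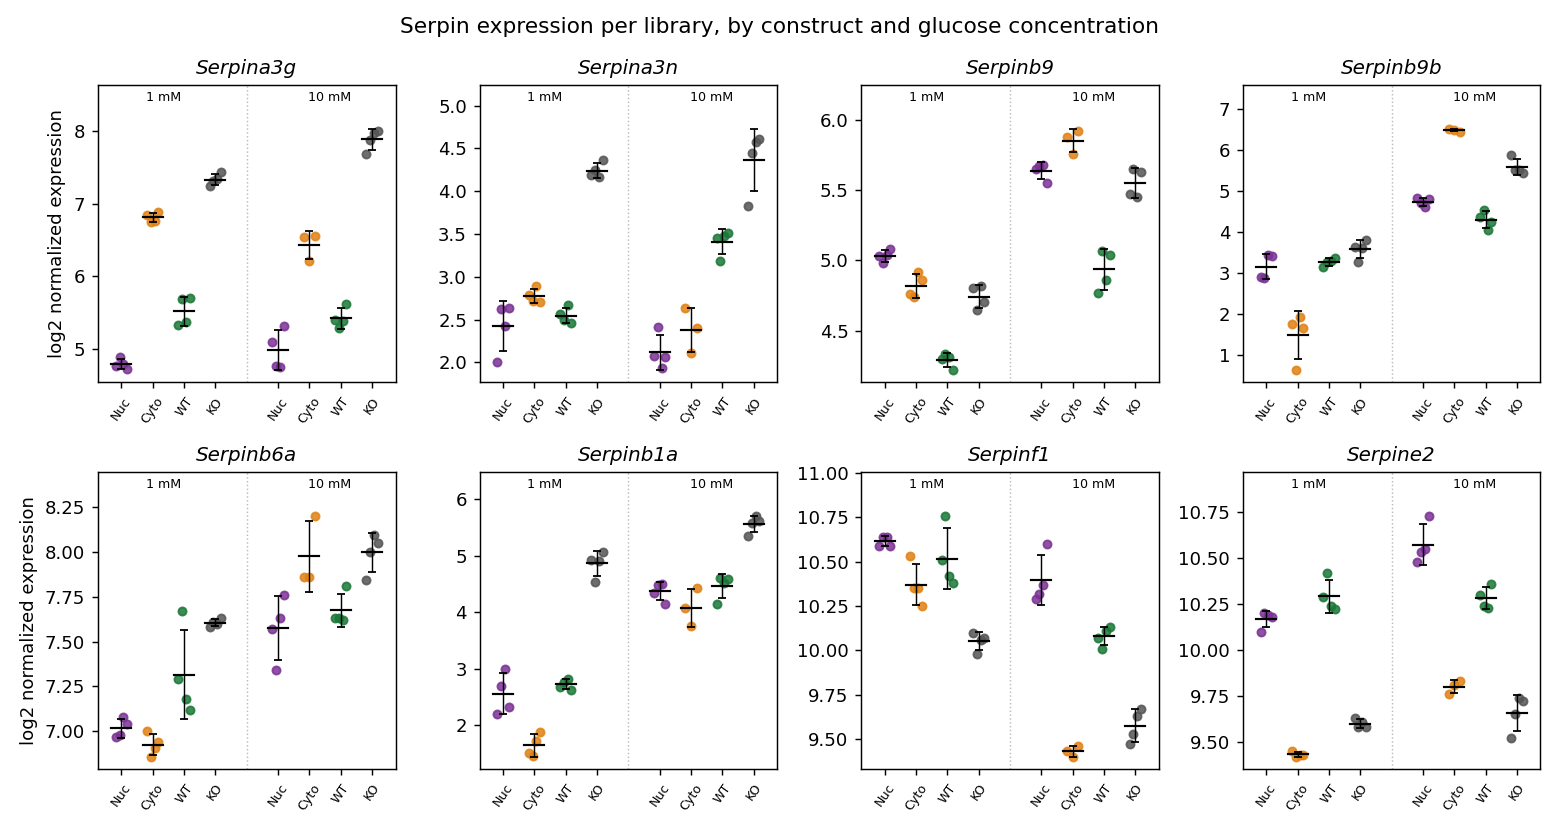
Normalized expression (log2, y axis) of the 8 serpins, with Nuc, Cyto, WT and KO from left to right for 1 mM and then 10 mM glucose; points are libraries and bars are mean ± SD, comparable only within a gene and medium. Serpina3g is highest in KO and has its lowest mean in Nuc in both media, while Serpinb9b in Cyto is lowest in 1 mM (mean 1.5) and highest in 10 mM glucose (mean 6.49).

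Serpinb9b, a neighbour and paralog of Serpinb9, had its Cyto level at opposite ends of the order in the 2 media. With 1 mM glucose it had 2.90, 2.88, 3.43 and 3.42 in Nuc, 1.75, 0.64, 1.94 and 1.66 in Cyto, 3.14, 3.28, 3.29 and 3.37 in WT, and 3.64, 3.27, 3.62 and 3.80 in KO libraries. All Cyto libraries lay below all others, while Nuc, WT and KO overlapped one another. With 10 mM glucose it had 4.83, 4.72, 4.61 and 4.80 in Nuc, 6.51, 6.50 and 6.45 in Cyto, 4.38, 4.55, 4.04 and 4.25 in WT, and 5.88, 5.52, 5.51 and 5.44 in KO libraries. No groups overlapped, and Cyto was highest. Cyto was 4.24-fold below KO in 1 mM and 1.86-fold above KO in 10 mM glucose. Nuc was 3.16-fold above Cyto in 1 mM and 3.35-fold below Cyto in 10 mM glucose. These values also chose the gene and carry no test, and medium and batch cannot be told apart.

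Serpina3n and Serpinb1a fell in all 3 ACLY lines relative to KO in both media, as 2 of the 6 tested members; 4.47% of all shared genes did so. With Serpinb6a, 3 of 6 did so in 1 mM glucose (15.7% of genes), and 2 of 6 in 10 mM glucose (7.91% of genes). Serpina3n, the mouse counterpart of human antichymotrypsin, is secreted. At 1 mM glucose it had 2.01, 2.62, 2.43 and 2.63 in Nuc, 2.79, 2.72, 2.89 and 2.70 in Cyto, 2.56, 2.50, 2.67 and 2.46 in WT, and 4.19, 4.25, 4.16 and 4.36 in KO libraries. KO stood above the ACLY lines, and Nuc overlapped WT. The log2 fold change against KO was -1.82 ± 0.12 (SE; limma adjusted p = 1.97e-09) in Nuc, -1.46 ± 0.12 (adjusted p = 2.27e-08) in Cyto and -1.69 ± 0.12 (adjusted p = 7.85e-09) in WT. At 10 mM glucose it had 2.07, 2.41, 1.93 and 2.06 in Nuc, 2.63, 2.11 and 2.40 in Cyto, 3.45, 3.19, 3.48 and 3.51 in WT, and 3.83, 4.45, 4.57 and 4.61 in KO libraries. WT lay between KO and the other ACLY lines without overlap. The log2 fold change against KO was -2.25 ± 0.18 (SE; limma adjusted p = 4.95e-08) in Nuc, -1.99 ± 0.20 (adjusted p = 8.48e-07) in Cyto and -0.96 ± 0.18 (adjusted p = 0.000508) in WT.

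Serpinb1a, an intracellular inhibitor of neutrophil elastase and cathepsin G, had the largest log2 fold change against KO among the 6 tested members in 1 mM glucose; in 10 mM glucose that was Serpina3n. At 1 mM glucose it had 2.21, 2.70, 3.00 and 2.33 in Nuc, 1.51, 1.46, 1.73 and 1.89 in Cyto, 2.68, 2.77, 2.82 and 2.63 in WT, and 4.93, 4.54, 4.91 and 5.07 in KO libraries. KO was highest and Cyto lowest, without overlap. The log2 fold change against KO was -2.30 ± 0.16 (SE; limma adjusted p = 2.86e-09) in Nuc, -3.22 ± 0.16 (adjusted p = 4.64e-11) in Cyto and -2.14 ± 0.16 (adjusted p = 1.2e-08) in WT, the Cyto value being 9.30-fold lower. At 10 mM glucose it had 4.34, 4.48, 4.5 and 4.15 in Nuc, 4.07, 3.75 and 4.42 in Cyto, 4.14, 4.61, 4.52 and 4.58 in WT, and 5.35, 5.57, 5.70 and 5.61 in KO libraries. The ACLY lines overlapped one another below KO. The log2 fold change against KO was -1.19 ± 0.14 (SE; limma adjusted p = 4.71e-06) in Nuc, -1.48 ± 0.16 (adjusted p = 1.65e-06) in Cyto and -1.09 ± 0.14 (adjusted p = 1.62e-05) in WT. Beside this, the summed linear value of Cd68, Csf1r and Lyz2 in 1 mM glucose was 20.4 to 24.9 in Nuc, 9.98 to 13.6 in Cyto, 8.08 to 13.3 in WT and 18.9 to 23.1 in KO libraries, Nuc overlapping KO. In 10 mM glucose it was 28.6 to 34.7 in Nuc, above KO, where Serpinb1a was lower in Nuc, with 13.5 to 15.2 in Cyto, 17.9 to 19.4 in WT and 12.1 to 21.9 in KO libraries. The part of these markers in the result was not tested.

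**Figure D2:**
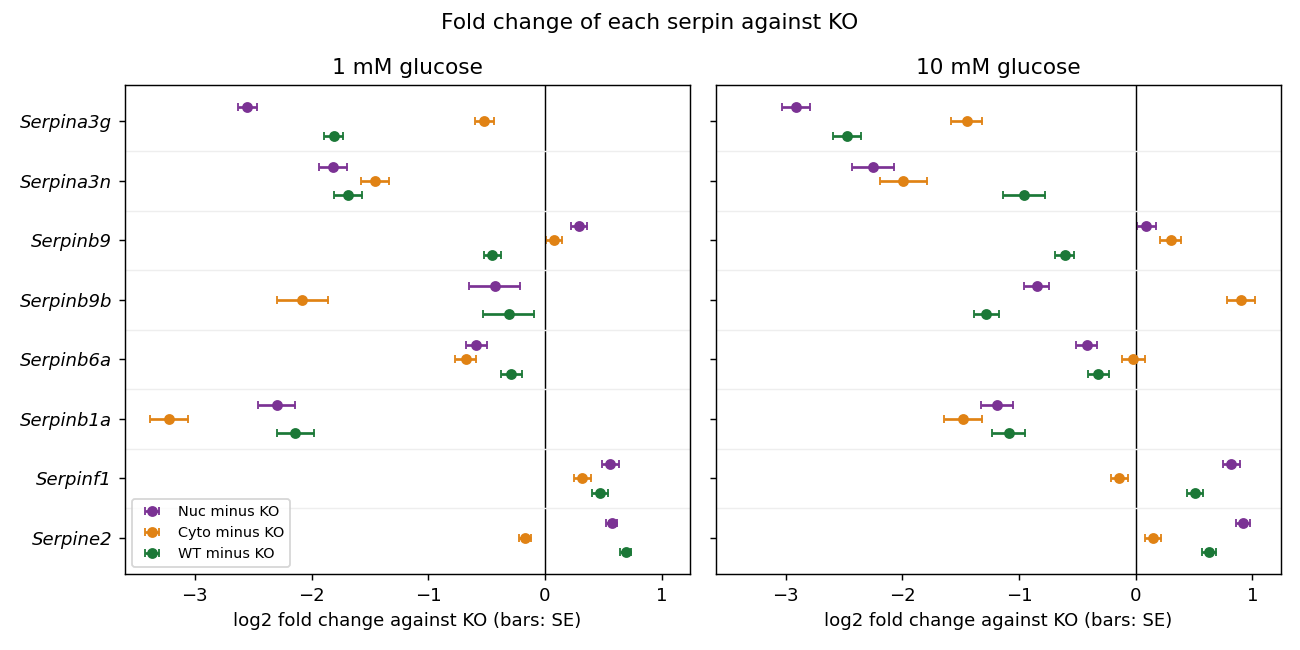
Log2 fold change of each serpin against KO (x axis) in Nuc, Cyto and WT cells, in 1 mM (left) and 10 mM glucose (right); points are limma estimates and bars their SE. Serpina3n and Serpinb1a lie left of 0 in every line and medium, Serpinf1 and Serpine2 right of 0 in Nuc and WT, and Serpinb9b in Cyto lies on opposite sides in the 2 media (-2.08 and 0.90).

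Serpinb9, the intracellular inhibitor of granzyme B, was lowest in WT in both media. Its libraries ran from 4.98 to 5.08 in Nuc, 4.74 to 4.92 in Cyto, 4.22 to 4.33 in WT and 4.65 to 4.82 in KO libraries in 1 mM glucose. The 10 mM libraries ran from 5.55 to 5.68 in Nuc, 5.76 to 5.92 in Cyto, 4.77 to 5.07 in WT and 5.45 to 5.65 in KO libraries. WT overlapped no other group in either medium. Against KO, its log2 fold change was 0.29 ± 0.07 (SE; limma adjusted p = 0.00116) in Nuc, 0.08 ± 0.07 (adjusted p = 0.317) in Cyto and -0.45 ± 0.07 (adjusted p = 1.81e-05) in WT in 1 mM glucose. It was 0.09 ± 0.08 (SE; limma adjusted p = 0.436) in Nuc, 0.30 ± 0.09 (adjusted p = 0.0137) in Cyto and -0.61 ± 0.08 (adjusted p = 2.1e-05) in WT in 10 mM glucose. The Cyto call in 10 mM glucose was lost without Cyto library 4 (limma adjusted p = 0.0587).

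Serpinb6a, an intracellular inhibitor of cathepsin G, differed from KO by less. Its libraries ran from 6.97 to 7.08 in Nuc, 6.86 to 7.0 in Cyto, 7.12 to 7.67 in WT and 7.58 to 7.63 in KO libraries in 1 mM glucose, and 1 WT library lay above all KO libraries. In 10 mM glucose they ran from 7.34 to 7.76 in Nuc, 7.86 to 8.20 in Cyto, 7.62 to 7.81 in WT and 7.84 to 8.09 in KO libraries, with Cyto overlapping KO. Against KO, its log2 fold change was -0.59 ± 0.09 (SE; limma adjusted p = 2.03e-05) in Nuc, -0.68 ± 0.09 (adjusted p = 3.21e-06) in Cyto and -0.29 ± 0.09 (adjusted p = 0.00885) in WT in 1 mM glucose. It was -0.42 ± 0.09 (SE; limma adjusted p = 0.00162) in Nuc, -0.02 ± 0.10 (adjusted p = 0.892) in Cyto and -0.32 ± 0.09 (adjusted p = 0.0116) in WT in 10 mM glucose.

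Serpine2 and Serpinf1 rose in Nuc and WT relative to KO in both media. Serpine2 encodes protease nexin, an extracellular inhibitor of thrombin and plasminogen activators. Its libraries ran from 10.10 to 10.20 in Nuc, 9.42 to 9.45 in Cyto, 10.22 to 10.42 in WT and 9.58 to 9.63 in KO libraries in 1 mM glucose. The 10 mM libraries ran from 10.48 to 10.73 in Nuc, 9.76 to 9.83 in Cyto, 10.23 to 10.36 in WT and 9.52 to 9.74 in KO libraries. No groups overlapped in either medium. The order of the means, WT, Nuc, KO and Cyto in 1 mM and Nuc, WT, Cyto and KO in 10 mM glucose, was also that of the summed fibroblast markers, whose part in the result was not tested. Against KO, the Serpine2 log2 fold change was 0.57 ± 0.05 (SE; limma adjusted p = 3.93e-08) in Nuc, -0.17 ± 0.05 (adjusted p = 0.00737) in Cyto and 0.69 ± 0.05 (adjusted p = 5.23e-09) in WT in 1 mM glucose. It was 0.92 ± 0.06 (SE; limma adjusted p = 5.81e-09) in Nuc, 0.15 ± 0.07 (adjusted p = 0.0928) in Cyto and 0.63 ± 0.06 (adjusted p = 7.54e-07) in WT in 10 mM glucose. Serpinf1 libraries ran from 10.59 to 10.64 in Nuc, 10.25 to 10.53 in Cyto, 10.38 to 10.76 in WT and 9.98 to 10.10 in KO libraries in 1 mM glucose, and KO was lowest without overlap. Those in 10 mM glucose ran from 10.29 to 10.60 in Nuc, 9.40 to 9.46 in Cyto, 10.01 to 10.13 in WT and 9.47 to 9.67 in KO libraries, and Cyto was lowest without overlap. Mean Serpinf1 was highest in Nuc in both media, and so was the sum of Fabp4 and Lpl. Both were lowest in KO in 1 mM and in Cyto in 10 mM glucose. The part of these 2 markers in the Serpinf1 values was not tested. The log2 fold change of Serpinf1 against KO was 0.56 ± 0.07 (SE; limma adjusted p = 5.96e-06) in Nuc, 0.32 ± 0.07 (adjusted p = 0.0013) in Cyto and 0.47 ± 0.07 (adjusted p = 5.23e-05) in WT in 1 mM glucose. It was 0.82 ± 0.07 (SE; limma adjusted p = 4.34e-08) in Nuc, -0.14 ± 0.07 (adjusted p = 0.123) in Cyto and 0.51 ± 0.07 (adjusted p = 1.3e-05) in WT in 10 mM glucose. The Serpinf1 Cyto value in 10 mM glucose passed the threshold with quantile normalization (-0.29, limma adjusted p = 9.92e-05) and with library weights (-0.18, adjusted p = 0.00876).

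Over the 6 tested members, 17 of 18 comparisons with KO were called in 1 mM glucose, where 61.0% of such comparisons over all genes were (60.0% for Nuc, 64.7% for Cyto and 58.2% for WT). In 10 mM glucose 14 of 18 were called, against 41.6% (45.3% for Nuc, 38.5% for Cyto and 40.8% for WT). The moderated F test over the constructs called 6 of 6 in each medium, against 82.5% of genes in 1 mM and 63.6% in 10 mM glucose. The comparisons with KO share the KO libraries. The members were chosen with earlier results of these data known, so these and the following counts are no unbiased comparison with all genes.

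Nuc against Cyto, the lines with ACLY sent to 1 compartment, was called for 5 of 6 members in 1 mM (background 41.0%) and 3 of 6 in 10 mM glucose (background 31.0%). Serpine2 was higher in Nuc, by 0.73 ± 0.05 (SE; limma adjusted p = 5.55e-09) in 1 mM and 0.77 ± 0.07 (adjusted p = 2.61e-07) in 10 mM glucose. Serpinf1 was also higher in Nuc, by 0.25 ± 0.07 (SE; limma adjusted p = 0.0144) in 1 mM and 0.96 ± 0.07 (adjusted p = 4.17e-08) in 10 mM glucose; the first call was lost without Cyto library 4 (adjusted p = 0.0532) or with quantile normalization (adjusted p = 0.166). For Serpinb1a the difference was 0.91 ± 0.16 (SE; limma adjusted p = 0.000244) in 1 mM and 0.29 ± 0.16 (adjusted p = 0.175) in 10 mM glucose. The 10 mM value ran from 0.12 to 0.46 with 1 library left out and was called without Cyto library 4 (limma adjusted p = 0.0425), with library weights (0.47, adjusted p = 0.0178) and with chromosome medians set equal (0.55, adjusted p = 0.016). For Serpina3n it was -0.35 ± 0.12 (SE; limma adjusted p = 0.0311) in 1 mM glucose, lost without Nuc library 1 (adjusted p = 0.108) or 3 (adjusted p = 0.0561), or Cyto library 1 (adjusted p = 0.0583) or 3 (adjusted p = 0.0832), and with these groups fitted alone (adjusted p = 0.0687). It was -0.27 ± 0.20 (adjusted p = 0.336) in 10 mM glucose. For Serpinb9 it was 0.21 ± 0.07 (SE; limma adjusted p = 0.0159) in 1 mM glucose, lost without Cyto library 2 (adjusted p = 0.0533), and -0.22 ± 0.09 (adjusted p = 0.0794) in 10 mM glucose. For Serpinb6a it was 0.09 ± 0.09 (SE; limma adjusted p = 0.433) in 1 mM and -0.40 ± 0.10 (adjusted p = 0.00662) in 10 mM glucose, the second lost without Cyto library 4 (adjusted p = 0.0521). The 1 mM value was called with library weights (0.11, limma adjusted p = 0.0472) and with chromosome medians set equal (0.42, adjusted p = 0.00524).

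Cyto against WT was called for 4 of 6 members in 1 mM (background 53.2%) and 5 of 6 in 10 mM glucose (background 31.5%). Serpine2 was lower in Cyto, with -0.86 ± 0.05 (SE; limma adjusted p = 4.31e-10) in 1 mM and -0.48 ± 0.07 (adjusted p = 4.81e-05) in 10 mM glucose. The Serpinb6a call in 10 mM glucose, 0.30 ± 0.10 (SE; limma adjusted p = 0.0322), was lost without Cyto library 4 (adjusted p = 0.194), without WT library 1, 2 or 3 (adjusted p at most 0.0721), without the prior trend (adjusted p = 0.0584) and with quantile normalization (adjusted p = 0.0614). Nuc against WT was called for 2 of 6 (background 39.1%) and 4 of 6 (background 28.8%). Serpinb9 was higher in Nuc, by 0.74 ± 0.07 (SE; limma adjusted p = 1.79e-07) in 1 mM and 0.70 ± 0.08 (adjusted p = 9.66e-06) in 10 mM glucose.

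Whether a fold change differed between media (1 mM minus 10 mM) was tested for 4 comparisons in each of the 6 members, and 12 of 24 differences were called. The background was 36.5% for Nuc against KO, 44.7% for Cyto against KO, 26.2% for WT against KO and 19.0% for Nuc against Cyto. For Serpinb1a the difference was -1.12 ± 0.22 (limma adjusted p = 0.000228) for Nuc, -1.74 ± 0.23 (limma adjusted p = 5.51e-07) for Cyto and -1.05 ± 0.22 (limma adjusted p = 0.000778) for WT against KO. For Serpina3n it was -0.73 ± 0.22 (limma adjusted p = 0.0127) for WT against KO, and for Serpinb6a -0.66 ± 0.14 (limma adjusted p = 0.000274) for Cyto against KO. For Serpinf1 it was -0.72 ± 0.10 (limma adjusted p = 7.4e-06) for Nuc against Cyto. A batch effect that is not the same for every construct stays in such a difference.

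The chromosome 12 neighbours Serpina3f, Serpina3h and Serpina3i share words with Serpina3g and are not independent of it. For Serpina3c the genes with most shared words were Serpina3m, Serpina3n and Serpina3k. For Serpina3m they were Serpina3k, Serpina3c and Serpina3n. Serpina3h, a transcribed pseudogene in RefSeq, averaged 0.42 ± 0.23 in Nuc, 1.94 ± 0.25 in Cyto, 0.09 ± 0.52 in WT and 2.25 ± 0.21 in KO cells in 1 mM glucose (SD, n = 4 each). It averaged 1.23 ± 0.23 in Nuc, 2.57 ± 0.10 in Cyto, 1.27 ± 0.30 in WT and 3.32 ± 0.13 in KO cells in 10 mM glucose (SD, n = 3 for Cyto and 4 for the others). Its log2 fold change against KO was -1.83 in Nuc (adjusted p = 4.19e-06), -0.31 in Cyto (adjusted p = 0.257) and -2.16 in WT (adjusted p = 7.89e-07) in 1 mM, and -2.10 in Nuc, -0.75 in Cyto and -2.05 in WT (limma adjusted p at most 0.00728) in 10 mM glucose. For Serpina3i it was -2.80 in Nuc, -1.56 in Cyto and -2.60 in WT (limma adjusted p at most 0.00106) in 1 mM, and -2.73 in Nuc, -1.33 in Cyto and -2.83 in WT (limma adjusted p at most 0.00368) in 10 mM glucose. Serpina3i fell in all 3 lines in both media. These are low levels, where the unknown depth matters. Serpina3i averaged -0.88 in Nuc, 0.36 in Cyto, -0.69 in WT and 1.91 in KO cells in 1 mM glucose. The median gene of that table averaged 5.02. Serpina3f, listed in 1 mM glucose only, had -3.41 in Nuc (limma adjusted p = 1.81e-07), -0.54 in Cyto (adjusted p = 0.167) and -2.60 in WT (adjusted p = 5.34e-06). Serpina3f averaged -2.03 in Nuc, 0.85 in Cyto, -1.21 in WT and 1.39 in KO cells. Serpina3c, likewise in 1 mM glucose only, had -0.33 in Nuc (adjusted p = 0.12), 0.70 in Cyto (adjusted p = 0.00265) and -0.69 in WT (adjusted p = 0.00336). Serpina3m had -2.69 in Nuc (limma adjusted p = 0.000572), -1.02 in Cyto (adjusted p = 0.124) and -1.30 in WT (adjusted p = 0.0576) in 1 mM glucose. Its values in 10 mM glucose were -1.93 in Nuc (limma adjusted p = 0.0329), -0.19 in Cyto (adjusted p = 0.868) and -0.14 in WT (adjusted p = 0.895). For Serpina3m, 1 Nuc library in 1 mM glucose stood at the lowest value of the table. KO library 1 in 10 mM glucose stood at -2.79, beside 0.65, 0.94 and 1.25 in the other KO libraries. How far the 10 mM fold changes of Serpina3m depend on that library was not tested.

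**Figure D3:**
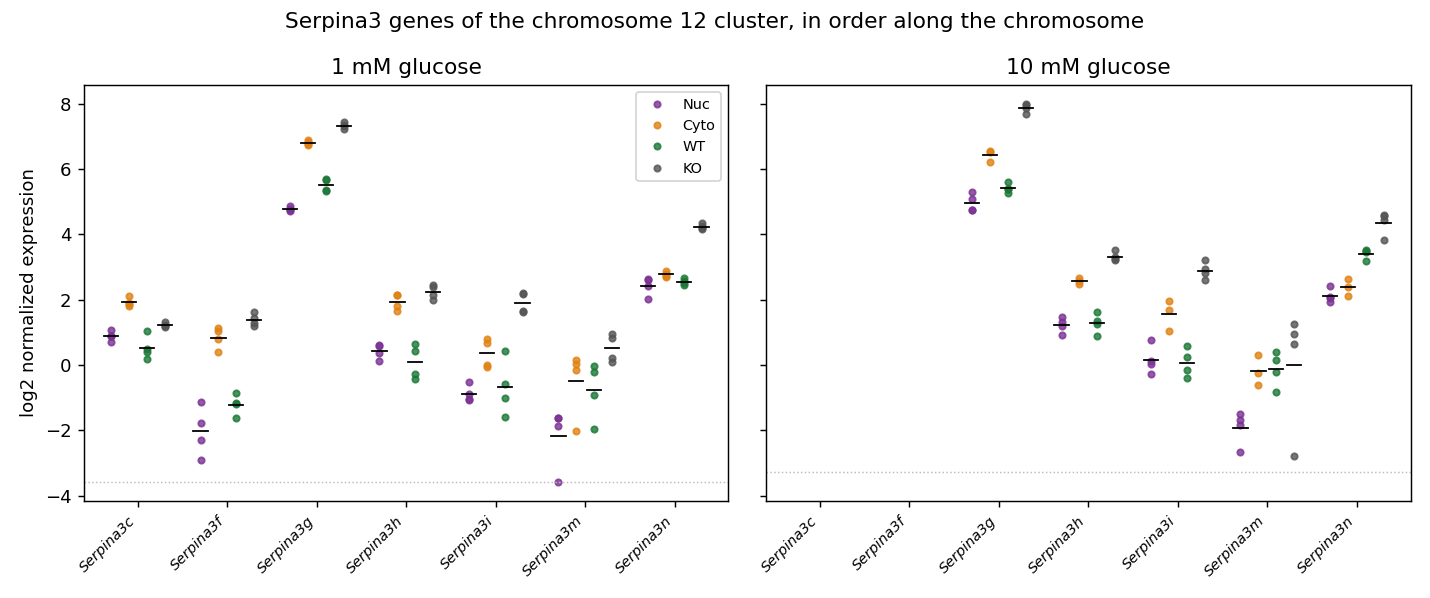
Normalized expression (log2, y axis) of 7 Serpina3 genes in their order on chromosome 12, in 1 mM (left) and 10 mM glucose (right); points are libraries, bars are means, colours are constructs and the dotted line is the lowest value of the table. Serpina3g, Serpina3h, Serpina3i, Serpina3m and Serpina3n have their highest mean in KO in both media. The KO libraries of Serpina3m overlap every other group in 10 mM glucose. Serpina3f and Serpina3c are listed in 1 mM glucose only, with the highest mean in KO and in Cyto, respectively. Levels are not comparable between genes.

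Of the 14 other serpins in either table, Serpinh1, the collagen chaperone, rose in all 3 lines and both media. Serpinh1 had 1.07 in Nuc, 1.2 in Cyto and 0.99 in WT (limma adjusted p at most 1.01e-10) against KO in 1 mM, and 0.53 in Nuc, 0.38 in Cyto and 0.58 in WT (limma adjusted p at most 0.000315) in 10 mM glucose. Serpinb8, a clade B member, had -1.08 in Nuc, -1.23 in Cyto and -1.23 in WT (limma adjusted p at most 6.77e-07) in 1 mM, and 0.06 in Nuc (adjusted p = 0.549), 0.16 in Cyto (adjusted p = 0.156) and -0.16 in WT (adjusted p = 0.12) in 10 mM glucose. Serpinb7 was at the lowest value, -3.29, in all Nuc and WT libraries in 10 mM glucose, beside 0.51 ± 1.32 in Cyto (SD, n = 3) and 0.99 ± 0.66 in KO cells (SD, n = 4). Serpina1e, Serpina9, Serpinb1b, Serpinc1 and Serpini1 enter by count only. Nuc against KO gave 2 higher and 6 lower of 12 (median -0.77, beside -0.01 over all genes) other serpins in 1 mM, and 3 higher and 4 lower of 12 (median 0.16, beside 0.00 over all genes) in 10 mM glucose. Cyto against KO gave 3 higher and 3 lower of 12 (median -0.15, beside -0.03 over all genes) in 1 mM, and 5 higher and 2 lower of 12 (median 0.03, beside 0.00 over all genes) in 10 mM glucose. For WT against KO these were 2 higher and 6 lower of 12 (median -0.96, beside 0.00 over all genes) in 1 mM, and 2 higher and 3 lower of 12 (median -0.24, beside 0.00 over all genes) in 10 mM glucose. Over all genes, Nuc against KO called 30.5% higher and 29.5% lower in 1 mM, and 22.7% in each direction in 10 mM glucose. Cyto against KO called 31.7% higher and 33.0% lower in 1 mM, and 19.6% higher and 18.9% lower in 10 mM glucose. WT against KO called 58.2% in either direction in 1 mM, and 51% of these calls were higher. In 10 mM glucose it called 40.8%, and 50.4% of these calls were higher.

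The remaining gene lists are given by counts, and a value beside a gene and a line is its log2 fold change against KO. Whole chromosomes, X among them, differed by construct as given below. The counts and values of these lists are not adjusted for that, and its part in them was not tested. The shares over all genes just given are the background of these counts. The next list holds serpin target proteases, and not all of them are targets of the members. Among these proteases, Nuc against KO gave 6 higher and 9 lower of 16 (median -0.31, beside -0.01 over all genes) in 1 mM, and 10 higher and 5 lower of 18 (median 0.55, beside 0.00 over all genes) in 10 mM glucose. Cyto against KO gave 4 higher and 9 lower of 16 (median -0.36, beside -0.03 over all genes) in 1 mM, and 7 higher and 4 lower of 18 (median 0.14, beside 0.00 over all genes) in 10 mM glucose. For WT against KO these were 5 higher and 8 lower of 16 (median -0.33, beside 0.00 over all genes) in 1 mM, and 9 higher and 5 lower of 18 (median 0.09, beside 0.00 over all genes) in 10 mM glucose. Plau (urokinase), a target of Serpine2, had -1.89 in Nuc, -1.35 in Cyto and -0.88 in WT (limma adjusted p at most 3.2e-06) against KO in 1 mM, and -1.5 in Nuc (adjusted p = 1.42e-09), 0.10 in Cyto (adjusted p = 0.451) and -0.35 in WT (adjusted p = 0.00493) in 10 mM glucose. Plat (tissue plasminogen activator) had -1.32 in Nuc, -2.20 in Cyto and -0.84 in WT (limma adjusted p at most 8.78e-07) in 1 mM glucose. Ctsk (cathepsin K) had 0.73 in Nuc, 0.60 in Cyto and -1.19 in WT (limma adjusted p at most 6.28e-07) in 1 mM, and 1.86 in Nuc, 0.83 in Cyto and -0.95 in WT (limma adjusted p at most 3.61e-06) in 10 mM glucose. C1ra, a complement protease, had 1.40 in Nuc (adjusted p = 5.46e-10), -0.21 in Cyto (adjusted p = 0.0573) and 0.96 in WT (adjusted p = 7.05e-08) in 10 mM glucose.

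Other protease inhibitors gave 3 higher and 6 lower of 15 (median -0.16, beside -0.01 over all genes) in Nuc against KO in 1 mM, and 4 higher and 6 lower of 17 (median 0.05, beside 0.00 over all genes) in 10 mM glucose. Cyto against KO gave 0 higher and 8 lower of 15 (median -0.35, beside -0.03 over all genes) in 1 mM, and 2 higher and 3 lower of 17 (median 0.00, beside 0.00 over all genes) in 10 mM glucose. For WT against KO these were 4 higher and 7 lower of 15 (median -0.26, beside 0.00 over all genes) in 1 mM, and 5 higher and 7 lower of 17 (median -0.51, beside 0.00 over all genes) in 10 mM glucose. Pi15, a peptidase inhibitor, had Nuc minus Cyto differences of 1.92 (limma adjusted p = 9.46e-10) in 1 mM and 1.51 (limma adjusted p = 3.59e-08) in 10 mM glucose. Itih2, an inter-alpha-trypsin inhibitor chain, had -1.81 in Nuc, -0.35 in Cyto and -1.29 in WT (limma adjusted p at most 0.0242) against KO in 1 mM glucose. Xiap, a caspase inhibitor, had -1.04 in Nuc, -0.58 in Cyto and -1.05 in WT (limma adjusted p at most 3.89e-05) in 1 mM glucose. Timp2, an inhibitor of metalloproteases, had 0.95 in Nuc, 0.34 in Cyto and 0.65 in WT (limma adjusted p at most 0.000223) in 10 mM glucose. Cst3 (cystatin C) had 1.06 in Nuc, 0.71 in Cyto and 0.96 in WT (limma adjusted p at most 0.000219) in 10 mM glucose.

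Serpin receptors and partners gave 9 higher and 9 lower of 23 (median 0.04, beside -0.01 over all genes) in Nuc against KO in 1 mM, and 9 higher and 7 lower of 23 (median 0.17, beside 0.00 over all genes) in 10 mM glucose. Cyto against KO gave 8 higher and 9 lower of 23 (median 0.04, beside -0.03 over all genes) in 1 mM, and 10 higher and 2 lower of 23 (median 0.16, beside 0.00 over all genes) in 10 mM glucose. For WT against KO these were 10 higher and 8 lower of 23 (median 0.08, beside 0.00 over all genes) in 1 mM, and 12 higher and 4 lower of 23 (median 0.32, beside 0.00 over all genes) in 10 mM glucose. F2r, the thrombin receptor, had 1.23 in Nuc, 0.87 in Cyto and 0.81 in WT (limma adjusted p at most 1.44e-09) in 1 mM, and 0.86 in Nuc, 1.53 in Cyto and 0.15 in WT (limma adjusted p at most 0.0266) in 10 mM glucose. Plxdc2, a receptor of the Serpinf1 protein, had -2.61 in Nuc, -0.44 in Cyto and -2.62 in WT (limma adjusted p at most 0.0116) in 1 mM glucose. F3 (tissue factor) had 0.41 in Nuc, 1.03 in Cyto and 1.30 in WT (limma adjusted p at most 5.48e-05) in 1 mM glucose. The heparan sulphate proteoglycan Gpc1 had -0.40 in Nuc, 1.2 in Cyto and 0.32 in WT (limma adjusted p at most 0.000494), and Gpc4 had -0.70 in Nuc, 0.28 in Cyto and -0.37 in WT (limma adjusted p at most 0.00113), in 10 mM glucose.

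Cytokine signalling through STAT factors and NF-kB are known to induce Serpina3 genes. The cytokine and STAT list gave 8 higher and 12 lower of 31 (median -0.08, beside -0.01 over all genes) in Nuc against KO in 1 mM, and 5 higher and 8 lower of 31 (median -0.10, beside 0.00 over all genes) in 10 mM glucose. Cyto against KO gave 11 higher and 9 lower of 31 (median 0.06, beside -0.03 over all genes) in 1 mM, and 8 higher and 5 lower of 31 (median -0.06, beside 0.00 over all genes) in 10 mM glucose. For WT against KO these were 6 higher and 11 lower of 31 (median -0.07, beside 0.00 over all genes) in 1 mM, and 5 higher and 7 lower of 31 (median -0.11, beside 0.00 over all genes) in 10 mM glucose. Irf1, an interferon response factor, had -1.70 in Nuc, -1.14 in Cyto and -1.18 in WT (limma adjusted p at most 3.63e-09) in 1 mM glucose. Osmr, the oncostatin M receptor, had 0.95 in Nuc (adjusted p = 7.98e-08), 1.30 in Cyto (adjusted p = 1.36e-09) and -0.05 in WT (adjusted p = 0.642) in 1 mM glucose, and Irf9 had 0.52 in Nuc, 1.13 in Cyto and 0.33 in WT (limma adjusted p at most 0.000681). In 10 mM glucose Socs2 had 0.65 in Nuc, 0.31 in Cyto and 0.80 in WT (limma adjusted p at most 0.00888), Stat6 had 0.48 in Nuc, 0.59 in Cyto and 0.68 in WT (limma adjusted p at most 6.06e-05) and Ifnar2 had 0.29 in Nuc, 0.44 in Cyto and 0.79 in WT (limma adjusted p at most 0.00863).

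The NF-kB and acute phase list gave 4 higher and 14 lower of 29 (median -0.25, beside -0.01 over all genes) in Nuc against KO in 1 mM, and 5 higher and 16 lower of 31 (median -0.28, beside 0.00 over all genes) in 10 mM glucose. In Cyto against KO it gave 12 higher and 7 lower of 29 (median 0.22, beside -0.03 over all genes) in 1 mM, and 6 higher and 7 lower of 31 (median -0.09, beside 0.00 over all genes) in 10 mM glucose. For WT against KO these were 7 higher and 12 lower of 29 (median -0.32, beside 0.00 over all genes) in 1 mM, and 3 higher and 15 lower of 31 (median -0.18, beside 0.00 over all genes) in 10 mM glucose. The complement component C3 had -4.01 in Nuc, 1.49 in Cyto and -1.45 in WT (limma adjusted p at most 7.55e-09) in 1 mM glucose. Vcam1, an adhesion molecule, had -0.90 in Nuc, 0.38 in Cyto and -1.43 in WT (limma adjusted p at most 0.000168), and Tsc22d3, a glucocorticoid-induced gene, had -1.04 in Nuc, -0.56 in Cyto and -0.99 in WT (limma adjusted p at most 3e-06), in 1 mM glucose. The chemokine Ccl2 had -2.59 in Nuc (adjusted p = 4.85e-11), -0.08 in Cyto (adjusted p = 0.641) and -3.02 in WT (adjusted p = 1.58e-11) in 10 mM glucose. Ccl7 had -2.03 in Nuc, -0.63 in Cyto and -2.25 in WT (limma adjusted p at most 0.00081) and Cxcl1 had -3.36 in Nuc, -1.06 in Cyto and -1.16 in WT (limma adjusted p at most 0.000281) in 10 mM glucose.

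Over the 31 libraries, each value centred on its table mean, the genes most like Serpina3g by Pearson r were Rbbp7 (0.976), Pja1 (0.958), Idh3g (0.946), Ubqln2 (0.935) and Sh3kbp1 (0.932), of 5750 genes compared. All 5 lie on the X chromosome, while Serpina3g lies on chromosome 12. By Spearman's rho 4 of the 5 were shared, and Adss2 on chromosome 1 (0.914) took the place of Ubqln2. The X chromosome as a whole was split by construct: the median log2 fold change of its expressed genes against KO was -0.48 in Nuc, 0.01 in Cyto and -0.46 in WT in 1 mM (159 genes), and -0.52 in Nuc, -0.06 in Cyto and -0.52 in WT in 10 mM glucose (173 genes). DNA copy number was not measured, and the part of this split in the Serpina3g values was not tested. The members' own r with Serpina3g was 0.765 for Serpina3n, 0.584 for Serpinb6a, 0.498 for Serpinb1a, 0.201 for Serpinb9b, 0.134 for Serpinb9 (Spearman's rho -0.185), -0.792 for Serpinf1 and -0.877 for Serpine2. Most like Serpinb9b were Myof (0.846), Thbs2 (0.837), Pcdh19 (0.828), Actg1 (0.807) and Ehd2 (0.785), on 5 chromosomes; 3 of these were also among the 5 highest by Spearman's rho. These are descriptions over libraries that share constructs and batches.

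Chromosomes 12 and 13 also differed by construct as wholes, as did others without a member. Chromosome 6 had a Nuc minus Cyto median of 0.41 in 1 mM and 0.45 in 10 mM glucose. On chromosome 1, which holds Serpine2, the median against KO in 1 mM glucose was -0.04 in Nuc, -0.01 in Cyto and -0.10 in WT. It was -0.22 in Nuc, -0.05 in Cyto and -0.23 in WT in 10 mM glucose. The median of chromosome 12 against KO was 0.46 in Nuc, 0.28 in Cyto and 0.33 in WT in 1 mM (182 genes), and 0.31 in Nuc, 0.26 in Cyto and 0.24 in WT in 10 mM glucose (201 genes). Serpina3g and Serpina3n had the opposite sign. A median over a chromosome does not describe the region of the Serpina3 genes. The part of whole or local chromosome differences in these values was not tested. The Nuc minus Cyto median of chromosome 13 was -0.23 in 1 mM (200 genes) and -0.27 in 10 mM glucose (215 genes). Setting each library's chromosome medians equal was an alternative chosen after seeing the data. It removes medians of expression levels, which can differ from the median fold changes given above. The median over all genes against KO in 1 mM glucose was then -0.09 in Nuc, -0.15 in Cyto and -0.06 in WT. As deposited it was -0.01 in Nuc, -0.03 in Cyto and 0.00 in WT. So this setting also lowered values against KO over all genes, and a lower value under it is not the part of a chromosome alone. Serpina3g against KO, not tested, was then -3.03 in Nuc, -0.86 in Cyto and -2.18 in WT in 1 mM, and -3.17 in Nuc, -1.66 in Cyto and -2.62 in WT in 10 mM glucose. Serpina3n was -2.31 in Nuc, -1.81 in Cyto and -2.06 in WT in 1 mM, and -2.51 in Nuc, -2.20 in Cyto and -1.11 in WT in 10 mM glucose (limma adjusted p at most 0.000232). Serpinb1a was -2.29 in Nuc, -3.54 in Cyto and -2.14 in WT in 1 mM, and -1.09 in Nuc, -1.64 in Cyto and -0.97 in WT in 10 mM glucose (limma adjusted p at most 5.36e-05). Serpinb9 in Cyto against KO went below 0 in 1 mM (limma, -0.25, adjusted p = 0.00604) and lost its call in 10 mM glucose (0.14, adjusted p = 0.269). Serpinb6a in 10 mM glucose lost its calls for WT against KO (limma, -0.20, adjusted p = 0.146), Nuc against Cyto (-0.14, adjusted p = 0.388) and Cyto against WT (0.02, adjusted p = 0.937). In 1 mM glucose its Nuc against Cyto difference became called (limma, 0.42, adjusted p = 0.00524).

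**Figure D4:**
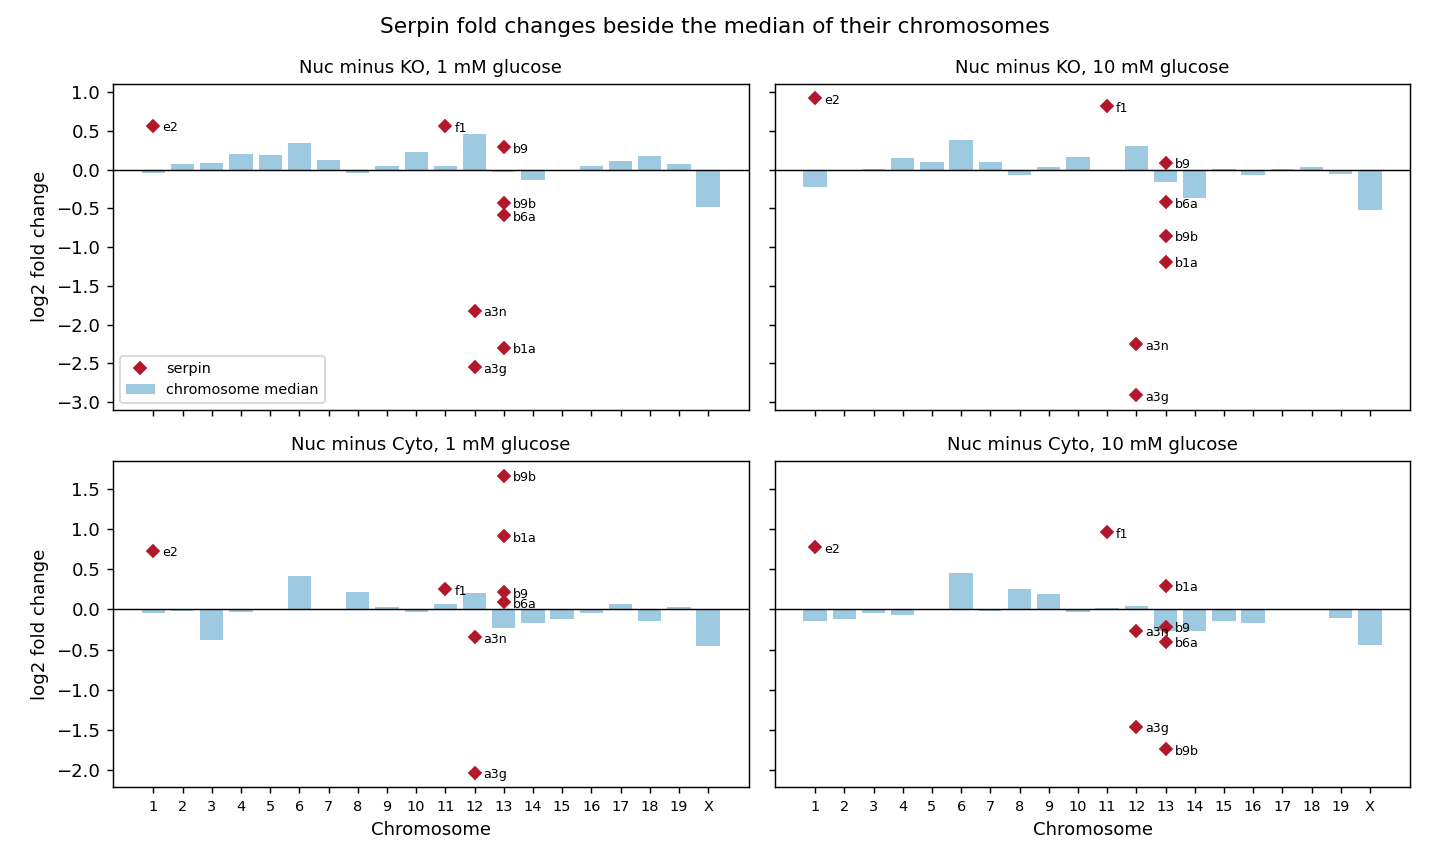
Median log2 fold change of each chromosome's expressed genes (bars) and log2 fold change of each serpin (diamonds, named without the prefix Serpin) for Nuc minus KO (top) and Nuc minus Cyto (bottom), in 1 mM (left) and 10 mM glucose (right). For Nuc minus KO the X chromosome stands at -0.48 and -0.52, and Serpina3g, Serpina3n and Serpinb1a lie far below the medians of chromosomes 12 and 13.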

How the data were processed

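RNA was purified with RNeasy Plus columns, and Novogene prepared and sequenced the libraries, per the labels' protocols. Per the submitters' processing notes, the authors used kallisto, edgeR and limma with build GRCm39; versions and filters are not stated. The deposited values are log2 values per gene that fit log2 CPM with an offset, 1 table per medium: 12053 genes in 16 libraries (1 mM) and 12791 genes in 15 libraries (10 mM glucose), 11931 genes in both. The lowest values are -3.592 and -3.293. The depth is unknown. The 1 entry without a symbol in each table, at most 0.04% of a library's linear total, was left out.

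Constructs were compared within each table with limma 3.58.1 (R 4.3.3): group means with an intensity trend, 1 fit per table, Benjamini-Hochberg adjustment over all genes, called under 0.05. Fold changes were compared between media on the shared genes. The fit was tested on simulated data. The members and lists were chosen with earlier results of these data known. Named are all members, the other serpins (1 is not reported here), up to 3 genes per list and medium with the smallest F adjusted p, and the 5 genes most like Serpina3g or Serpinb9b among genes at or above the median level in both tables. Chromosomes, matched by symbol to RefSeq GRCm38.p6, were found for 97.6% of genes in 1 mM and 96.6% in 10 mM glucose; promoters are from the same build. Transcript words come from GENCODE M21. Alternatives covered the scaling, offset, low-value filter, prior variance, library weights, replicate block, samples in the fit and each library left out.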

Additional observations from a re-analysis of the deposited data

Results flagged for a closer look

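The WT library 4 in 10 mM glucose stood apart for Serpinb6a, at 7.81 against 7.62 to 7.63 in the other WT libraries; it was 1 of 56 groups tested for an outlying library, and chance flags about 1 in 20.

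Of 24 limma tests of whether a fold change differed between media (1 mM minus 10 mM, log2), 12 passed the threshold. Serpinb1a differed for Nuc against KO (-1.12), Cyto against KO (-1.74) and WT against KO (-1.05). Serpina3n differed for WT against KO (-0.73). Serpinb6a differed for Cyto against KO (-0.66) and Nuc against Cyto (0.49), and Serpinb9 for Nuc against Cyto (0.43). Serpinf1 differed for Cyto against KO (0.46), Nuc against KO (-0.26) and Nuc against Cyto (-0.72), and Serpine2 for Nuc against KO (-0.35) and Cyto against KO (-0.31). The Serpinf1 difference for Nuc against KO was lost in 11 of the fits with 1 library left out (limma adjusted p 0.0534 to 0.118), each of a Nuc or KO library, and the Serpinb6a difference for Nuc against Cyto without Cyto library 4 in 10 mM glucose (0.38, adjusted p = 0.063). The backgrounds for these comparisons were 36.5% for Nuc against KO, 44.7% for Cyto against KO, 26.2% for WT against KO and 19.0% for Nuc against Cyto.

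For Serpinb9b every Cyto library lay below every KO library in 1 mM and above every KO library in 10 mM glucose, a difference of -2.98 on the log2 scale, and Nuc against Cyto went the other way, with a difference of 3.40. The difference between media was not tested for this gene, because its values chose it.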

How the results depend on the processing

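Other settings tried were no trend in the prior variance, library medians made equal, quantile normalization, 1 added before the log, only genes with mean log2 of at least 0, library weights, a replicate block, the compared groups fitted alone, and each library left out. Chromosome medians set equal was added after seeing the data. Nuc against WT in 1 mM glucose had 1 call with the groups alone, against 2 as reported. Leaving out 1 library gave 17 calls against KO in 1 mM each time, 13 to 16 in 10 mM, 11 to 14 media differences, 4 to 5 calls for Nuc against Cyto in 1 mM and 3 in 10 mM, 4 to 5 for Cyto against WT in each medium, and 2 to 3 for Nuc against WT in 1 mM and 4 in 10 mM glucose. Directions changed as follows; the cause was not tested. With quantile normalization, Serpinf1 Cyto against WT in 1 mM was 0.21 (limma adjusted p = 0.0015), Serpine2 Nuc against WT in 1 mM 0.08, and the WT against KO media difference -0.03 for Serpinb6a and -0.01 for Serpine2. With library weights, the media difference was -0.01 for Serpinb6a WT against KO and 0.01 for Serpine2 Nuc against Cyto. With chromosome medians equal, Serpinb9 Cyto against KO in 1 mM was -0.25, Serpinb9 Nuc against Cyto in 10 mM 0.04, and the WT against KO media difference -0.09 for Serpinb6a and -0.01 for Serpine2. With 1 library left out, Serpina3n Nuc against WT in 1 mM ran from -0.19 to 0.01 and Serpinb6a Cyto against KO in 10 mM from -0.14 to 0.04. So did the media differences of Serpina3n Nuc against Cyto (-0.21 to 0.05), Serpinb6a WT against KO (-0.09 to 0.10), Serpinf1 WT against KO (-0.12 to 0.01) and Serpine2 Nuc against Cyto (-0.07 to 0.01). The replicate block ended no call and added 3: Cyto against KO in 10 mM for Serpinf1 (-0.14, limma adjusted p = 0.0421) and Serpine2 (0.15, adjusted p = 0.0318), and the Serpinb1a media difference of Nuc against Cyto (0.66, adjusted p = 0.0455). Same-numbered libraries deviated with correlations of -0.182 to 0.136 in 1 mM and -0.026 to 0.359 in 10 mM glucose, against -0.210 to 0.297 and -0.226 to 0.129 for different numbers, and 0 of 16 and 6 of 15 libraries correlated best with their own number. The numbers were not taken as pairs, since the labels state no shared source for them. In 10 mM glucose the medians (0.052 and -0.012) are a hint of sharing, from the data and not the design. Among the libraries numbered 4 there, the correlation was 0.359 for Nuc and KO, 0.232 for Nuc and WT and 0.157 for WT and KO. It was 0.104 for Nuc and Cyto, 0.066 for Cyto and WT and 0.013 for Cyto and KO. The unknown depth limits genes near the lowest value.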
